A study of Mus musculus with 6 samples.

Results

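A rule for monocytes and young macrophages derived from them selected 405 of 38697 liver cells, of which 249 (61.5%) fell in clusters named monocyte-like or macrophage-like. The mice had undergone partial inferior vena cava ligation (pIVCL), an operation that narrows the main vein above the liver and congests the organ. Cells were selected on measured UMIs (unique molecular identifiers, counts of captured mRNA molecules): a cell had to hold UMIs of at least 2 of the genes Ly6c2, Ccr2, F13a1, Chil3, Plac8, Ace and Treml4 and at least 1 UMI of Csf1r or Lyz2. It also had to hold no UMI of Clec4f, Timd4, Vsig4, Xcr1, Siglech, Cd79a, Cd3e, Retnlg or Gpnmb, and at most 1 UMI over Stab2, Clec4g and Reln, which mark Kupffer cells, dendritic cells, lymphocytes, neutrophils, scar macrophages and sinusoidal endothelium. These genes therefore describe how the cells were chosen, and their levels are given without a test. The selected cells numbered 73, 95 and 44 in CWHM-12 libraries 1, 2 and 3, and 68, 58 and 67 in DMSO libraries 1, 2 and 3, and values by library keep that order throughout.

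The CWHM-12 group consisted of wild-type male mice that received the pan-αV-integrin inhibitor CWHM-12 at 100 mg/kg/day from an osmotic pump placed under the skin 2 weeks after pIVCL, and the DMSO group received the vehicle in the same way. Mice were 8 to 10 weeks old at surgery, and the livers were collected once treatment had lasted 4 weeks. Every library therefore came from an operated liver, and no unoperated liver entered the comparison. Batch 2024.6 held CWHM-12 library 1 and DMSO libraries 1 and 2, and batch 2024.12 held CWHM-12 libraries 2 and 3 and DMSO library 3. With 3 libraries per group and no mouse identifier in the labels, the p-values speak only to how far these libraries scatter, and that scatter may be technical in part. In a suspension of dissociated cells, a lower summed level can reflect fewer cells of a kind or less RNA per cell; the levels by cluster given below separate these only in part.

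Classical monocytes leave the bone marrow under control of the chemokine receptor CCR2 and carry Ly6C. In the blood some become nonclassical patrolling monocytes, a step that depends on the nuclear receptor Nr4a1, and in an injured liver others turn into macrophages that express complement C1q and MHC class II. αV integrins bind matrix proteins and the latent form of TGF-β, while monocytes attach to vessel walls mainly through β2 and α4 integrins.

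Library totals ranged from 28220477 to 48100436 UMIs over 10000 barcodes each, of which 3163 to 8447 passed the filter (300 or more genes, 500 or more UMIs, mitochondrial share not above 30%). The selected cells of a library held 237412 to 505900 UMIs in all, with medians of 2757 to 7603 UMIs per cell. Across genes, the summed selected cells of DMSO library 2 had the lowest median Spearman correlation with the other libraries (0.732), followed by CWHM-12 library 3 (0.788), and the other 4 lay between 0.830 and 0.851. Libraries shared at most 5 barcodes in any pair and no selected cell's barcode. The suspension was adjusted to about 90% nonparenchymal cells and 10% hepatocytes, per the labels' protocol, so shares of all cells partly reflect that step.

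Unsupervised clustering divided the selected cells into 9 clusters, and it showed that the rule gathered more than monocytes. Cluster 2, with 78 cells, was classical monocyte-like: Ly6c2 stood at 2507 CPM (UMIs per 1000000 UMIs of the same cells), Ccr2 at 3602 CPM and F13a1, the transglutaminase factor XIII A chain, at 1455 CPM. Its leading genes also included versican (Vcan, 239 CPM, against 6.05 CPM in the other selected cells) and fibronectin (Fn1, 1623 CPM, against 239.8 CPM in the others). Cluster 1, with 83 cells, was monocyte-like with Ccr2 at 3384 and Plac8 at 3168 CPM but Ly6c2 at only 490.1 CPM, and it was led by Anxa4, Ly6i and the interferon-induced GTPase Gbp2. The hepatocyte transcripts Alb and Ttr were also among its leading genes. Cluster 3, with 56 cells, was nonclassical monocyte-like.

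In cluster 3, Ace, which encodes angiotensin-converting enzyme, stood at 1532 CPM, and among genes outside the rule Nr4a1 stood at 1245 CPM, leukosialin (Spn) at 743 CPM and the muscle-type enolase Eno3 at 241 CPM. Ccr2 was lower there (661 CPM) than in clusters 1 and 2. Cluster 4, with 32 cells, was macrophage-like, with C1qa, C1qb and C1qc at 1210, 5155 and 3538 CPM, the iron exporter Slc40a1 at 1438 CPM and the apoptotic cell receptor Mertk at 309 CPM. These cells still held the monocyte receptor Ccr2 at 2024 CPM. Of the Kupffer genes that the rule did not exclude, Cd5l was found in 37.5%, Folr2 in 31.2% and Marco in 0% of the 32 cells.

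Cluster 0 was the largest, with 91 cells (22.5% of the selected cells), and was type 2 dendritic-like. The lectins Cd209a and Clec10a stood there at 2109 and 308 CPM, the growth factor receptor Flt3 at 304 CPM and the class II chain H2-Ab1 at 16610 CPM. H2-Ab1 stood at 258 CPM in the classical monocyte-like cluster 2, at 5952 CPM in cluster 1, at 1092 CPM in cluster 3 and at 14090 CPM in the macrophage-like cluster. A separate rule for type 2 dendritic cells (at least 2 of Cd209a, Clec10a, Flt3 and Zbtb46 with H2-Ab1) was met by 75 of its 91 cells. Clusters 1 to 4, the monocyte-like and macrophage-like cells, made up 249 cells (61.5%).

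A further 65 cells (16.0%) lay in clusters 5 to 8, which are called by their leading genes. Cluster 5 (30 cells) carried the division genes Top2a (1183 CPM) and Mki67 (631 CPM, found in 93.3% of its cells). Granule genes of early myeloid precursors were found in part of its cells: Mpo (2159 CPM) in 23.3%, Elane (1518 CPM) in 30% and Prtn3 in 36.7%. Cluster 5 also held rule genes: Ly6c2 (3043 CPM, the highest of any cluster) in 60%, Ccr2 in 80% and Plac8 in 86.7% of its cells. F13a1 (1011 CPM) was found in 46.7% and Chil3 in 26.7%, so the label may still cover part of this cluster. Of its 30 cells, 10 met the rule for type 2 dendritic cells. Cluster 6 (15 cells) held the secondary granule genes Ngp, Ltf and Camp with S100a8 and S100a9, and Ly6g at 1019 CPM. Chil3, a rule gene that developing neutrophils also express, reached 14680 CPM in cluster 6, against 984 CPM in cluster 2. Cluster 7 (14 cells) carried the cytotoxic lymphocyte genes Gzma, Nkg7 and Prf1 beside the hepatocyte genes Car3 and Fabp1. Cluster 8 (6 cells) carried the vessel wall genes Vwf, Ptprb and Mgp, had Ace UMIs in all of its cells and held a UMI of the pan-leukocyte gene Ptprc in 1 of 6.

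**Figure D1:**
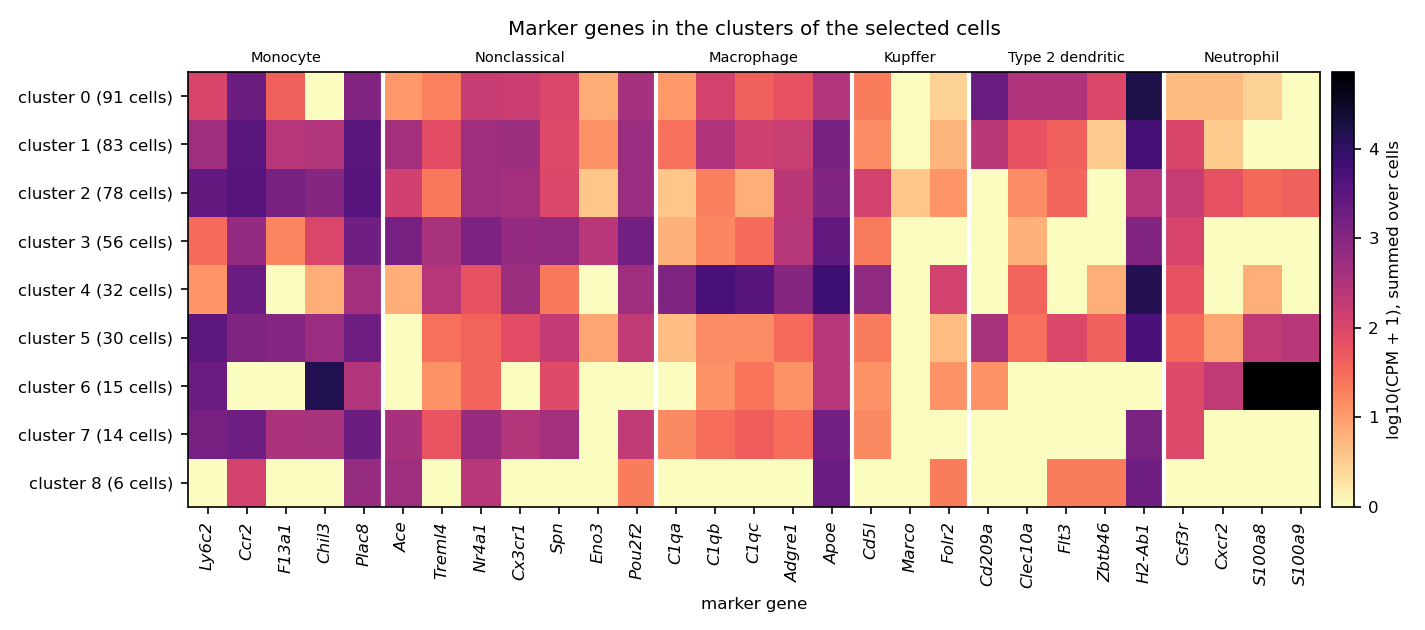
Level of marker genes in each cluster of the 405 selected cells, with clusters along one axis and genes along the other and colour giving CPM on a log scale. Ccr2 and Plac8 are highest in clusters 1 and 2, Ace and Nr4a1 stand out in cluster 3, the C1q genes in cluster 4, Cd209a and Flt3 in cluster 0, and Ly6c2 is highest in cluster 5 and Chil3 in cluster 6.

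H2-Ab1 was lower in each monocyte-like cluster than in the dendritic-like cluster 0, least so in cluster 1. The start regions of 2 class II genes are shown for the box they share. The letters, from RefSeq's GRCm38.p6 table, run 5′ to 3′ from 250 bases before to 50 bases after the gene start (H2-Aa at chr17:34287774-34288073, minus strand; H2-Eb1 at chr17:34305617-34305916, plus strand), with the box CCAAT, or its reverse complement ATTGG, in capitals. The CCAAT-binding factor NF-Y is known to bind such a box in class II promoters.
H2-Aa: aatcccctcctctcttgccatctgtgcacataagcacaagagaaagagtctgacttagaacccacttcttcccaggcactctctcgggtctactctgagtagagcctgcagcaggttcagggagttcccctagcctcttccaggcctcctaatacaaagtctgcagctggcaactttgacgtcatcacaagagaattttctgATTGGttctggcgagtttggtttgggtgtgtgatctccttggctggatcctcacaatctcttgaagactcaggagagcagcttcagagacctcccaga
H2-Eb1: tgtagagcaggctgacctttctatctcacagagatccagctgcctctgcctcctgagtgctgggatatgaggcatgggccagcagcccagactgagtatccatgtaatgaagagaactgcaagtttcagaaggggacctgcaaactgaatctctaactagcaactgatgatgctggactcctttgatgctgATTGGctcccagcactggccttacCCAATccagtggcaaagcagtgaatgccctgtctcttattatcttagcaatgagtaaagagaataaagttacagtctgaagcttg
H2-Aa held 1 match and H2-Eb1 held 2, counted on both strands. Of the tested class II genes, 8 of 11 had an entry in the table and 6 of these 8 (75%) held the box, against 12289 of 32851 promoters of the same length (37.4%). The list was counted by gene, with any entry holding the box, and the background by entry. H2-Eb1 itself stood at 8366 CPM in cluster 0, against 1989 CPM in the other selected cells.

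Set against all other kept cells, genes outside the rule also marked the selected cells, as a description of the cells chosen. The median ratio over the 6 libraries was 44.0 for Cd209a, 34.5 for the protease inhibitor Serpinb10, 31.7 for the orphan receptor Gpr141 and 27.5 for the calcium-binding protein S100a4. It was 23.0 for the fractalkine receptor Cx3cr1, 21.2 for the chemokine Ccl9 and 17.0 for the adhesion protein embigin (Emb). The type 2 dendritic comparison cells met the dendritic rule but included no selected cell, so selection may in part set these contrasts. Serpinb10 stood at 234 CPM in the selected cells, against 19.96 CPM in those dendritic cells, and Cx3cr1 at 331 CPM, against 53.2 CPM. The gap was smaller for Gpr141 (361 CPM selected, 257 CPM dendritic), S100a4 (466 and 359 CPM), Ccl9 (477 and 313 CPM) and Emb (515 and 306 CPM). Cd209a went the other way, at 586 CPM in the selected cells, against 1412 CPM in the dendritic cells. In Kupffer-type cells, the resident macrophages, Ccl9 stood at 29.2 CPM, Cx3cr1 at 18.5 CPM and S100a4 at 4.58 CPM.

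Among the rule genes, Plac8 was found in 89.4% and Ccr2 in 82.7% of the selected cells, Ly6c2 in 41.7%, F13a1 in 34.8%, Ace in 33.1%, Chil3 in 28.4% and Treml4 in 25.9%. Ly6c2 stood at 892, 1094 and 196 CPM in the CWHM-12 libraries, against 1135, 1926 and 1541 CPM in the DMSO libraries, on library sizes scaled by edgeR's TMM factors, the scale of all levels by library that follow unless stated. CWHM-12 library 3 was the lowest for Ly6c2, and the other 2 CWHM-12 libraries also lay below the 3 DMSO libraries, CWHM-12 library 2 by a small margin. Within clusters 1 to 3, Ly6c2 stood at 686, 1016 and 567 plain CPM in the CWHM-12 libraries, against 1423, 2429 and 867 plain CPM in the DMSO libraries. There the groups overlapped, since CWHM-12 library 2 lay above DMSO library 3. Ccr2 stood at 2875, 2168 and 1518 CPM in the CWHM-12 libraries, against 2448, 3104 and 1768 CPM in the DMSO libraries, with the groups overlapping. Ly6c2 has a close paralogue, Ly6c1, and how the counting divided reads between them is not given in the sources used here.

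Cells with a UMI of Ace or Treml4 were set against cells with neither, for genes the rule did not use. They included all 56 cells of cluster 3, 57 of 83 in cluster 1, 26 of 32 in cluster 4, 22 of 78 in cluster 2 and 13 of 91 in cluster 0, so the cells with neither gene held most of the dendritic-like as well as the classical monocyte-like cells. Pooled over libraries, the Fc receptor Fcgr4 stood at 354 CPM in cells with either gene, against 43.4 CPM in cells with neither, and the scavenger receptor Cd36 at 212 CPM with and 23.0 CPM without. Cd300e stood at 124 CPM with and 5.95 CPM without, the sphingosine phosphate receptor S1pr5 at 96.0 CPM with and 7.66 CPM without, and the nuclear receptor Pparg at 75.2 CPM with and 6.80 CPM without. In the other direction, Flt3 stood at 31.7 CPM with and 156 CPM without and the replication helicase subunit Mcm6 at 19.8 CPM with and 89.3 CPM without. Each of these 7 genes differed in the same direction in all 6 libraries. The share of selected cells with Ace or Treml4 was 52.1, 42.1 and 47.7% in the CWHM-12 libraries, against 55.9, 51.7 and 37.3% in the DMSO libraries, with the groups overlapping.

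At the threshold, 150 selected cells held exactly 2 of the 7 marker genes, 255 held at least 3, and 268 cells met every other condition but held only 1. Class II RNA was highest in cells with 2 markers: H2-Ab1 stood at 12439 CPM in them, at 4233 CPM in cells with at least 3 and at 5546 CPM in the cells just outside. Ptprc was found in 84.7% of cells just inside and 48.5% of cells just outside. Albumin RNA was higher just outside (1031 CPM inside, against 2757 CPM outside).

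The share of selected cells among all kept cells was 1.18, 1.12 and 0.545% in the CWHM-12 libraries, against 1.15, 1.83 and 0.971% in the DMSO libraries. CWHM-12 library 3 was the lowest and DMSO library 2 the highest, and the groups overlapped. The means were 0.950 ± 0.352% in CWHM-12 and 1.32 ± 0.456% in DMSO libraries (SD, n = 3 each), and the difference of -0.367 percentage points had an exact two-sided permutation p of 0.5, where 3 libraries against 3 cannot go below 0.1. Within batches the difference was -0.309 in 2024.6 and -0.137 in 2024.12. Among kept cells with a Ptprc UMI, the share was 4.27, 2.86 and 2.21% in the CWHM-12 libraries, against 3.69, 4.59 and 2.73% in the DMSO libraries (exact permutation p = 0.6).

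Within the selected cells, the nonclassical monocyte-like cluster 3 took 13.7, 13.7 and 4.55% in the CWHM-12 libraries, against 16.2, 13.8 and 17.9% in the DMSO libraries. Every CWHM-12 library lay below every DMSO library, by small margins in CWHM-12 libraries 1 and 2, and the exact permutation p of 0.1 is the smallest possible and became 0.9 when adjusted over the 9 clusters. The macrophage-like cluster 4 took 6.85, 7.37 and 18.2% in the CWHM-12 libraries, against 4.41, 6.90 and 7.46% in the DMSO libraries (exact permutation p = 0.5), with CWHM-12 library 3 high and the groups overlapping. Cluster 5, with the division and granule genes, took 4.11, 4.21 and 9.09% in the CWHM-12 libraries, against 4.41, 8.62 and 16.4% in the DMSO libraries (exact permutation p = 0.5), and DMSO library 3 held 11 of the 30. Cluster 6 had 0 of 44 cells in CWHM-12 library 3, which allows a share of up to 6.82%. For single libraries the 95% Wilson intervals, which cover counting error only, were wide: 9.51 to 32.0% for cluster 4 in CWHM-12 library 3.

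**Figure D2:**
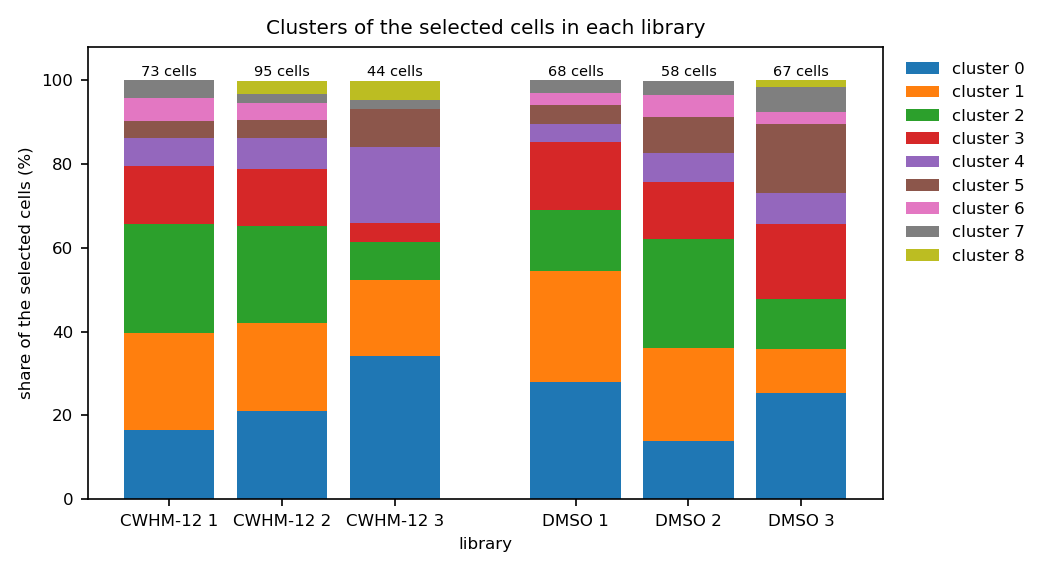
Share of the selected cells in each cluster (percent, vertical axis) for each library, with CWHM-12 left of DMSO. Cluster 3 lies between 4.55 and 13.7% in CWHM-12 and between 13.8 and 17.9% in DMSO libraries, and the other clusters overlap between the groups.

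Complement C1q RNA, which monocytes gain as they become macrophages, was read as the share of cells with at least 1 UMI of C1qa, C1qb or C1qc after each cell was reduced to 1000 UMIs. The share was 11.5, 15.3 and 31.9% in the CWHM-12 libraries, against 11.2, 11.9 and 15.7% in the DMSO libraries, or 19.6 ± 10.9% in CWHM-12 and 12.9 ± 2.43% in DMSO libraries (SD, n = 3 each; exact permutation p = 0.6). CWHM-12 library 3 alone stood apart, and without it the difference of 6.65 percentage points became 0.467. Within batches the difference was -0.0336 in 2024.6 and 7.91 in 2024.12. Without thinning, the share was 31.5, 22.1 and 50% in the CWHM-12 libraries, against 25.0, 19.0 and 37.3% in the DMSO libraries. B cells, which should lack C1q, gave 5.80, 9.90 and 12.2% in the CWHM-12 libraries, against 7.15, 4.02 and 8.03% in the DMSO libraries at the same depth, and Kupffer-type cells gave 98.1 to 99.6%. In clusters 1 to 3 the share was 4.63, 9.87 and 14.5% in the CWHM-12 libraries, against 5.74, 5.18 and 10.8% in the DMSO libraries, at or below the B cell share of the same library in 3 of 6 libraries. Median depth before thinning was 2757 to 7603 UMIs in the selected cells and 1146 to 3112 UMIs in B cells.

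UMIs were then summed over the selected cells of each library, and CWHM-12 was compared with DMSO across 5410 genes by edgeR's quasi-likelihood test with batch as a term. No gene passed an adjusted p of 0.05 (0% of genes tested), and 192 genes (3.55%) had an unadjusted p under 0.05, where DESeq2 also called 0 (92 unadjusted) and limma voom 0 (251 unadjusted). Without the filter on low counts edgeR called 60 genes, of which 33 were also tested with it. Every CWHM-12 library lay above every DMSO library for 265 genes (4.9%) and below it for 289 (5.34%), and 50.6% of genes had a log2 fold change above 0, the median being 0.01. The genes described next are the 10 of smallest p in each direction and the most abundant members of named lists, and none of their differences passed the test. Without the filter on low counts, 17 of the 20 genes of smallest p were among the 60 called, with adjusted p from 9.16e-07 to 0.0390.

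**Figure D3:**
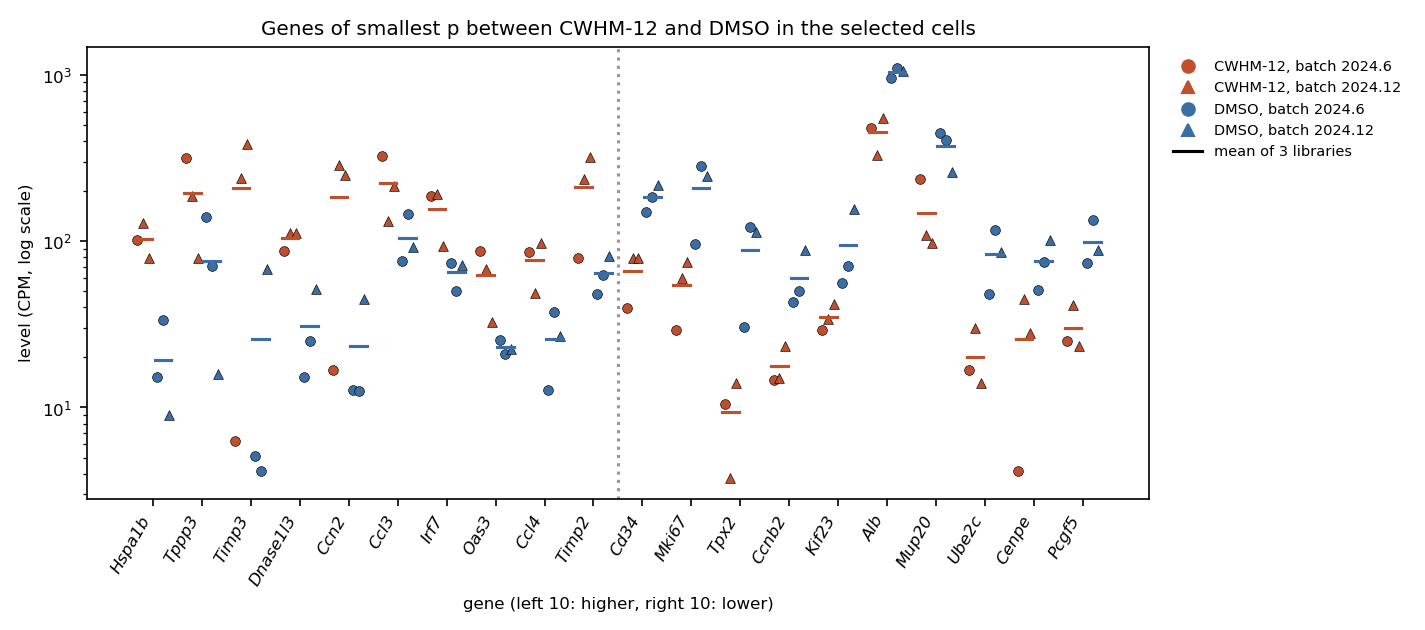
Level of the 10 genes of smallest p in each direction in every library (CPM on a log axis), with CWHM-12 left of DMSO. The points of Hspa1b, Irf7 and Oas3 lie higher in all CWHM-12 libraries, those of Cd34 and the cell cycle genes lower, and no gene passed the adjusted test.

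Genes of cell division were lower in CWHM-12 libraries across the selected cells. The proliferation antigen Mki67 stood at 29.2, 60.1 and 74.5 CPM in the CWHM-12 libraries, against 96.7, 284 and 246 CPM in the DMSO libraries (log2 fold change -2.21, SE 0.43, edgeR adjusted p = 0.510). All CWHM-12 libraries lay below all DMSO libraries, and the UMIs came from 3, 7 and 5 cells in CWHM-12 and 6, 10 and 12 cells in DMSO libraries. The spindle assembly factor Tpx2 stood at 10.4, 3.76 and 14.0 CPM in the CWHM-12 libraries, against 30.5, 121 and 113 CPM in the DMSO libraries (log2 fold change -3.21, SE 0.64, edgeR adjusted p = 0.510). The mitotic cyclin Ccnb2 stood at 14.6, 15.03 and 23.3 CPM in the CWHM-12 libraries, against 43.3, 50.1 and 88.0 CPM in the DMSO libraries (log2 fold change -1.95, SE 0.42, edgeR adjusted p = 0.595). In both genes the CWHM-12 libraries rested on at most 3 cells with a UMI. The ubiquitin-conjugating enzyme Ube2c stood at 16.7, 30.1 and 14.0 CPM in the CWHM-12 libraries, against 48.4, 117 and 85.7 CPM in the DMSO libraries. The kinesin Kif23 stood at 29.2, 33.8 and 41.9 CPM in the CWHM-12 libraries, against 56.0, 71.0 and 156 CPM in the DMSO libraries. Neither gene's groups overlapped. For Ube2c, however, 1 cell gave 62.5, 50 and 66.7% of the UMIs in the CWHM-12 libraries and 68.4, 67.9 and 84.2% in the DMSO libraries. The kinetochore motor Cenpe stood at 4.18, 45.1 and 27.9 CPM in the CWHM-12 libraries, against 50.9, 75.2 and 102 CPM in the DMSO libraries (log2 fold change -2.14, SE 0.51, edgeR adjusted p = 0.607).

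Of the cell cycle list, 20 genes were tested, 0 had a positive and 20 a negative log2 fold change, 12 had an unadjusted p under 0.05 against 3.55% of all genes, and the median was -1.20, against 0.01 over all genes. The median was -1.15 within batch 2024.6 and -0.89 within batch 2024.12. Summed over 26 listed genes, the plain CPM was 2356, 3478 and 3812 CPM in the CWHM-12 libraries, against 3118, 6015 and 5918 CPM in the DMSO libraries. DMSO libraries 2 and 3 were highest, while DMSO library 1 lay between the CWHM-12 libraries. Without cluster 5 the sums were 1890.3, 2475 and 1822 CPM in the CWHM-12 libraries, against 2586, 2689 and 2254 CPM in the DMSO libraries, with the groups overlapping. By mean CPM without cluster 5, 15 of the 20 tested genes were still lower in CWHM-12 libraries, with a median log2 ratio of -0.68 after adding 5 CPM. Mki67 then stood at 0, 35.0 and 4.78 plain CPM in the CWHM-12 libraries, against 56.9, 125 and 53.4 plain CPM in the DMSO libraries, and Tpx2 at 4.14, 3.89 and 0 plain CPM in the CWHM-12 libraries, against 23.3, 22.4 and 17.8 plain CPM in the DMSO libraries, neither with overlap. Ccnb2 did not overlap either, but Ube2c, Kif23, Cenpe, Top2a and Hmgb2 did. Ube2c stood at 6.21, 31.1 and 0 plain CPM in the CWHM-12 libraries, against 46.5, 17.9 and 8.91 plain CPM in the DMSO libraries. Kif23 stood at 24.8, 19.5 and 9.56 plain CPM in the CWHM-12 libraries, against 54.3, 8.96 and 32.7 plain CPM in the DMSO libraries. Summed over clusters 1 to 3 alone, the list stood at 1701, 1862 and 2068 CPM in the CWHM-12 libraries, against 1702, 1545 and 1827 CPM in the DMSO libraries. The groups overlapped there too, and the list's median log2 fold change in those clusters was 0.06 over 5 tested genes. The median was -0.49 when cells with Ace or Treml4 were left out, and -0.57 when the rule was applied to cells reduced to 1000 UMIs.

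**Figure D4:**
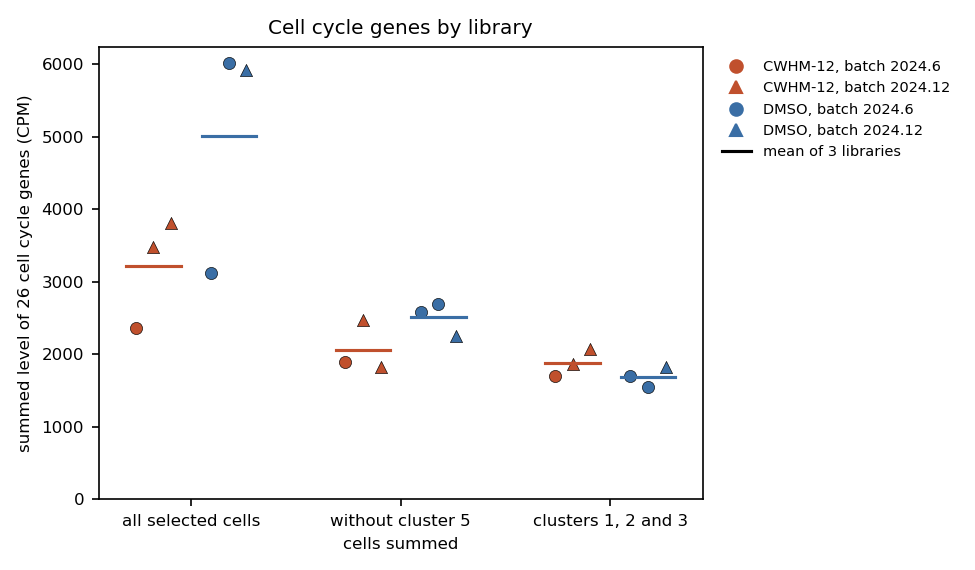
Summed level of the cell cycle list in each library (CPM, axis from 0), for all selected cells, for those outside cluster 5 and for clusters 1 to 3, with CWHM-12 left of DMSO. DMSO libraries 2 and 3 stand at 6015 and 5918 CPM over all selected cells, and the libraries of both groups overlap in clusters 1 to 3.

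The start regions of Ccnb2 (chr9:70421505-70421804, minus strand) and Ube2c (chr2:164769679-164769978, plus strand) are shown because both genes stood lower in every CWHM-12 library and carry repeats of the same box as the class II genes, again from RefSeq's GRCm38.p6 table with CCAAT or ATTGG in capitals.
Ccnb2: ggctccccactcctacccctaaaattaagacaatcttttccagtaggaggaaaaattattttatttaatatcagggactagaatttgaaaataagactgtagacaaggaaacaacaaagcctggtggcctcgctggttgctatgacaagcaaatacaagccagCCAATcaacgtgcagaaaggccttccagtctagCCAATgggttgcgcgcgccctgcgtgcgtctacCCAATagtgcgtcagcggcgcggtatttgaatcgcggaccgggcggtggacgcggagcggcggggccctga
Ube2c: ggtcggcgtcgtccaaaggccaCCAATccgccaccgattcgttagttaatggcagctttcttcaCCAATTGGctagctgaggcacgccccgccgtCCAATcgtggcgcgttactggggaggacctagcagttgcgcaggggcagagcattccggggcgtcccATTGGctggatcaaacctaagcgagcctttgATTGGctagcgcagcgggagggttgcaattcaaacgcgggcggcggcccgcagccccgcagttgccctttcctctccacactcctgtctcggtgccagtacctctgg
Ccnb2 held 3 matches and Ube2c held 6, of which a forward and a reverse match overlap. Of the 20 tested cell cycle genes, 17 had an entry and 14 of these (82.4%) held the box, against 37.4% of all promoters, again counted by gene and by entry. A match describes the letters and not a bound site.

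The precursor and endothelial surface antigen Cd34 stood at 39.7, 78.9 and 79.2 CPM in the CWHM-12 libraries, against 150.2, 184 and 219 CPM in the DMSO libraries (log2 fold change -1.73, SE 0.29, edgeR adjusted p = 0.376; -1.92 within batch 2024.6 and -1.40 within batch 2024.12). The groups did not overlap, and cells with a UMI numbered 10, 7 and 7 in CWHM-12 and 15, 11 and 21 in DMSO libraries. Without cluster 5, Cd34 stood at 39.3, 66.2 and 76.5 plain CPM in the CWHM-12 libraries, against 114, 170.3 and 98.0 plain CPM in the DMSO libraries, again without overlap. Cd34 in clusters 1 to 3 stood at 9.80, 46.2 and 16.7 plain CPM in the CWHM-12 libraries, against 64.9, 74.3 and 13.2 plain CPM in the DMSO libraries, and there DMSO library 3 lay among the CWHM-12 libraries. Those levels rested on 3, 6 and 1 UMIs in the CWHM-12 libraries and 14, 10 and 2 UMIs in the DMSO libraries. Pcgf5, a Polycomb group protein, stood at 25.1, 41.3 and 23.3 CPM in the CWHM-12 libraries, against 73.8, 134 and 88.0 CPM in the DMSO libraries (log2 fold change -1.70, SE 0.41, edgeR adjusted p = 0.629) and did not overlap between the groups either.

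The inducible heat shock gene Hspa1b had the largest positive difference of the named genes, at 102, 128 and 79.2 CPM in the CWHM-12 libraries, against 15.3, 33.4 and 9.02 CPM in the DMSO libraries (log2 fold change 2.65, SE 0.47, edgeR adjusted p = 0.376; 1.91 within batch 2024.6 and 2.84 within batch 2024.12). The groups did not overlap, and the gene was found in 17, 10 and 9 cells of the CWHM-12 libraries and 5, 6 and 2 cells of the DMSO libraries. In clusters 1 to 3 it stood at 84.9, 115 and 133 plain CPM in the CWHM-12 libraries, against 23.2, 14.9 and 19.9 plain CPM in the DMSO libraries (log2 fold change 2.24, edgeR adjusted p = 0.509). Hspa1b there rested on 26, 15 and 8 UMIs in the CWHM-12 libraries and 5, 2 and 3 UMIs in the DMSO libraries. Its neighbour Hspa1a encodes a nearly identical protein, and the counting may have divided reads between them. Heat shock and early response genes are also induced by tissue digestion: of that list, 21 of 22 tested genes had a log2 fold change above 0 and 1 below, and the median was 0.36. The part of cell handling in the difference was not tested.

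Tppp3, which encodes a tubulin-binding protein, stood at 315, 188 and 79.2 CPM in the CWHM-12 libraries, against 140.0, 71.0 and 15.8 CPM in the DMSO libraries (log2 fold change 2.04, SE 0.45, edgeR adjusted p = 0.595), and cells with a UMI numbered 32, 26 and 9 in CWHM-12 and 17, 9 and 4 in DMSO libraries. The groups overlapped, since DMSO library 1 lay above CWHM-12 library 3, while the differences within batches were both positive (1.60 within batch 2024.6 and 2.57 within batch 2024.12). Tppp3 was among the leading genes of the classical monocyte-like cluster 2, at 364 CPM, against 89.7 CPM in the other selected cells. The chemokine Ccl3, which draws leukocytes to inflamed tissue, stood at 324, 132 and 214 CPM in the CWHM-12 libraries, against 76.3, 146 and 92.5 CPM in the DMSO libraries, and 1 cell gave 66.5% of the UMIs of CWHM-12 library 1. Its relative Ccl4 stood at 85.6, 48.9 and 97.8 CPM in the CWHM-12 libraries, against 12.7, 37.6 and 27.1 CPM in the DMSO libraries, with 68.3% and 85.7% of the UMIs of CWHM-12 libraries 1 and 3 from 1 cell each. The Ccl4 groups did not overlap, while those of Ccl3 did.

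A group of genes known from vessel walls stood higher in CWHM-12 libraries, and their UMIs sat in a few cells. The metalloproteinase inhibitor Timp3 stood at 6.26, 240.5 and 382 CPM in the CWHM-12 libraries, against 5.09, 4.18 and 67.7 CPM in the DMSO libraries (log2 fold change 1.93, SE 0.45, edgeR adjusted p = 0.595). The matricellular protein Ccn2 stood at 16.7, 286 and 252 CPM in the CWHM-12 libraries, against 12.7, 12.5 and 45.1 CPM in the DMSO libraries (log2 fold change 1.93, SE 0.48, edgeR adjusted p = 0.629). CWHM-12 libraries 2 and 3 were high and CWHM-12 library 1 was not, so the groups overlapped for both. The 6 cells of cluster 8 numbered 0, 3 and 2 in CWHM-12 and 0, 0 and 1 in DMSO libraries; without them Timp3 stood at 5.93, 51.4 and 24.1 plain CPM in the CWHM-12 libraries, against 4.75, 3.72 and 39.2 plain CPM in the DMSO libraries. Ccn2 without them stood at 15.8, 25.7 and 4.82 plain CPM in the CWHM-12 libraries, against 11.9, 11.2 and 23.9 plain CPM in the DMSO libraries. Of the sinusoidal endothelial list, 8 of 8 tested genes had a positive log2 fold change (median 0.86; -0.13 without DMSO library 3), and the summed plain CPM was 753, 1621 and 2325 CPM in the CWHM-12 libraries, against 582, 844 and 987 CPM in the DMSO libraries. Without cluster 8 that sum was 753, 1058 and 984 CPM in the CWHM-12 libraries, against 582, 844 and 729 CPM in the DMSO libraries.

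Dnase1l3, a secreted DNase that clears chromatin and is expressed by myeloid and sinusoidal endothelial cells, stood higher in CWHM-12 libraries with and without cluster 8. It stood at 87.7, 113 and 112 CPM in the CWHM-12 libraries, against 15.3, 25.1 and 51.9 CPM in the DMSO libraries over all selected cells (log2 fold change 1.58, SE 0.37, edgeR adjusted p = 0.595; 1.87 within batch 2024.6 and 1.03 within batch 2024.12) and at 83.0, 107 and 101 plain CPM in the CWHM-12 libraries, against 14.3, 22.3 and 50.1 plain CPM in the DMSO libraries without cluster 8, with no overlap either way. Within clusters 1 to 3 Dnase1l3 stood at 6.53, 69.2 and 16.7 plain CPM in the CWHM-12 libraries, against 9.27, 14.9 and 59.6 plain CPM in the DMSO libraries, with the groups overlapping. Dnase1l3 there rested on 2, 9 and 1 UMIs in the CWHM-12 libraries and 2, 2 and 9 UMIs in the DMSO libraries. The log2 fold change was -0.13 when cells with Ace or Treml4 were left out. Timp2, another metalloproteinase inhibitor, stood at 79.3, 237 and 321 CPM in the CWHM-12 libraries, against 48.4, 62.7 and 81.2 CPM in the DMSO libraries, and 1 cell gave 71.4% of the UMIs of CWHM-12 library 2. The groups of Timp2 overlapped.

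Interferon-induced genes lay on both sides of 0. The transcription factor Irf7 stood at 186, 192 and 93.2 CPM in the CWHM-12 libraries, against 73.8, 50.1 and 72.2 CPM in the DMSO libraries (log2 fold change 1.28, SE 0.34, edgeR adjusted p = 0.910; 1.52 within batch 2024.6 and 0.84 within batch 2024.12). The antiviral oligoadenylate synthetase Oas3 stood at 87.7, 67.6 and 32.6 CPM in the CWHM-12 libraries, against 25.4, 20.9 and 22.6 CPM in the DMSO libraries (log2 fold change 1.57, SE 0.43, edgeR adjusted p = 0.933). For both, the lowest CWHM-12 library lay above the highest DMSO library. Irf7 in clusters 1 to 3 stood at 114, 138 and 83.4 plain CPM in the CWHM-12 libraries, against 92.7, 52.0 and 72.8 plain CPM in the DMSO libraries (log2 fold change 0.61, edgeR adjusted p = 0.999), with the groups overlapping. Gbp2, a GTPase induced by interferon-γ, stood at 127, 132 and 93.2 CPM in the CWHM-12 libraries, against 305, 439 and 209.8 CPM in the DMSO libraries (log2 fold change -1.22, SE 0.30, edgeR adjusted p = 0.629). The interferon-γ-induced chemokine Cxcl9 stood at 6.26, 256 and 102 CPM in the CWHM-12 libraries, against 153, 472 and 408 CPM in the DMSO libraries with the groups overlapping. Cxcl9 rested on 2 to 6 cells per library, and 1 cell gave 90.9% of its UMIs in CWHM-12 library 3 and 98.3, 64.6 and 82.9% in DMSO libraries 1, 2 and 3. Of the list, 18 of 28 tested genes had a positive and 10 a negative log2 fold change, 4 had an unadjusted p under 0.05 against 3.55% of all genes, and the median of 0.22 turned to -0.07 without DMSO library 3 and to -0.02 without the batch term.

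In clusters 1 to 3 alone, a comparison added after the data were seen, Gbp2 was the 1 gene of 2603 (0.0384%) to pass, with 73 genes (2.8%) at an unadjusted p under 0.05. It stood there at 81.6, 123 and 83.4 plain CPM in the CWHM-12 libraries, against 505, 594 and 549 plain CPM in the DMSO libraries (log2 fold change -2.58, SE 0.32, edgeR adjusted p = 0.00805). The groups lay far apart, yet the cells with a UMI numbered 15, 9 and 4 of 46, 55 and 14 in CWHM-12 and 10, 15 and 3 of 39, 36 and 27 in DMSO libraries. A single cell gave 73.4% of the Gbp2 UMIs of DMSO library 1 and 86.7% of those of DMSO library 3. With the top cell's UMIs left out of every library, Gbp2 stood at 71.8, 92.3 and 50.02 plain CPM in the CWHM-12 libraries, against 134, 409 and 72.8 plain CPM in the DMSO libraries, with the groups overlapping. The adjusted p was 0.175 without CWHM-12 library 1, 0.134 without CWHM-12 library 3 and 0.149 without DMSO library 3. Gbp2 also helped to define cluster 1, so the clusters are not independent of it.

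Genes of classical monocytes outside the rule lay on both sides of 0. S100a4 stood at 718, 499.8 and 596 CPM in the CWHM-12 libraries, against 468, 405 and 299.99 CPM in the DMSO libraries (log2 fold change 0.79, SE 0.24, edgeR adjusted p = 0.933). The membrane restriction factor Ifitm3 stood at 3428, 2589 and 2813 CPM in the CWHM-12 libraries, against 2313, 1675 and 1703 CPM in the DMSO libraries (log2 fold change 0.72, SE 0.26, edgeR adjusted p = 0.999). Neither gene overlapped between the groups, and these were the 2 genes of the list with an unadjusted p under 0.05. Among members below 0, Ly6i had a log2 fold change of -1.61, Ly6a2 of -0.64 and Mgst1 of -0.47. Of the classical list, 16 of 22 tested genes had a log2 fold change above 0 and 6 below, and the median was 0.35, and its summed level was 11022, 8594 and 7485 CPM in the CWHM-12 libraries, against 7962, 8415 and 6166 CPM in the DMSO libraries, with the groups overlapping. Of the nonclassical list, 10 of 20 tested genes had a log2 fold change above 0 and 10 below, and the median was 0.02. The median of the classical list lay between 0.17 and 0.47 over 19 alternatives, and that of the nonclassical list between -0.18 and 0.35.

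Genes that rise as monocytes become macrophages gave a median of 0.39, with 21 of 22 tested genes positive, but the median was 0.0027 within batch 2024.6 and 0.55 within batch 2024.12. It was 0.16 without CWHM-12 library 3, -0.07 without DMSO library 3 and -0.15 in clusters 1 to 3. Apolipoprotein E (Apoe) stood at 1695, 1518 and 2445 CPM in the CWHM-12 libraries, against 1700, 911 and 1496 CPM in the DMSO libraries, with the groups overlapping. For MHC class II, 10 of 11 tested genes had a log2 fold change above 0 and 1 below, and the median was 0.20. H2-Ab1 stood at 7064, 8109 and 10224 CPM in the CWHM-12 libraries, against 6362, 6496 and 8494 CPM in the DMSO libraries with the groups overlapping.

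For coagulation and fibrinolysis, 7 of 9 tested genes had a log2 fold change above 0 and 2 below, and the median was 0.39. Annexin A2 (Anxa2), a surface receptor for plasminogen and its activator, stood at 662, 613 and 694 CPM in the CWHM-12 libraries, against 575, 309 and 474 CPM in the DMSO libraries without overlap. For the glucocorticoid response, 9 of 10 tested genes had a log2 fold change above 0 and 1 below, and the median was 0.46. The metallothionein Mt1 stood at 127, 132 and 177 CPM in the CWHM-12 libraries, against 25.4, 50.1 and 119.5 CPM in the DMSO libraries. The phosphatase Dusp1, in both the glucocorticoid and the early response lists, stood at 566, 529.8 and 922 CPM in the CWHM-12 libraries, against 310.5, 543 and 268 CPM in the DMSO libraries, with the groups overlapping. Klf2, a transcription factor that blood flow induces in endothelium, stood at 482, 511 and 717 CPM in the CWHM-12 libraries, against 463, 255 and 293 CPM in the DMSO libraries (log2 fold change 0.73, SE 0.32, edgeR adjusted p = 0.999). The NF-κB inhibitor Nfkbia stood at 528, 387 and 610.1 CPM in the CWHM-12 libraries, against 336, 305 and 354 CPM in the DMSO libraries (log2 fold change 0.60, SE 0.26, edgeR adjusted p = 0.999). Neither overlapped between the groups. The lipid droplet protein Plin2 stood at 121, 105 and 102 CPM in the CWHM-12 libraries, against 68.7, 46.0 and 56.4 CPM in the DMSO libraries. The inhibitory receptor Cd300a stood at 482, 364 and 349 CPM in the CWHM-12 libraries, against 326, 318 and 212 CPM in the DMSO libraries, again without overlap. Neutrophil genes had a median of -0.44 (8 of 9 negative), with Ngp listed at 3280.2, 2841 and 0 CPM in the CWHM-12 libraries, against 3334, 7127 and 1809 CPM in the DMSO libraries.

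Counts of log2 fold changes above 0 in the other lists can be read against 50.6% over all genes, and no gene of these lists passed the test. Lists of uptake and metabolism were lysosome and apoptotic cell uptake (23 of 25 above 0, median 0.34), iron and haem handling (9 of 11 above 0, median 0.35), the unfolded protein response (15 of 20 above 0, median 0.20) and glycolysis and hypoxia (6 of 15 above 0, median -0.16). Lists of signalling and its targets were NF-κB and inflammation (16 of 22 above 0, median 0.16), flow and stretch response (9 of 11 above 0, median 0.19), YAP and TAZ targets (5 of 5 above 0, median 0.22) and chemokines and their receptors (7 of 12 above 0, median 0.27). Lists of cell identity were myeloid transcription factors (19 of 26 above 0, median 0.29), phagocyte immune receptors (17 of 24 above 0, median 0.26), Kupffer cell identity (6 of 7 above 0, median 0.44), dendritic cell genes (6 of 13 above 0, median -0.23) and scar-associated macrophage genes (10 of 14 above 0, median 0.18). The list of matrix proteases and their inhibitors (6 of 9 above 0, median 0.05) had a median close to 0.

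**Figure D5:**
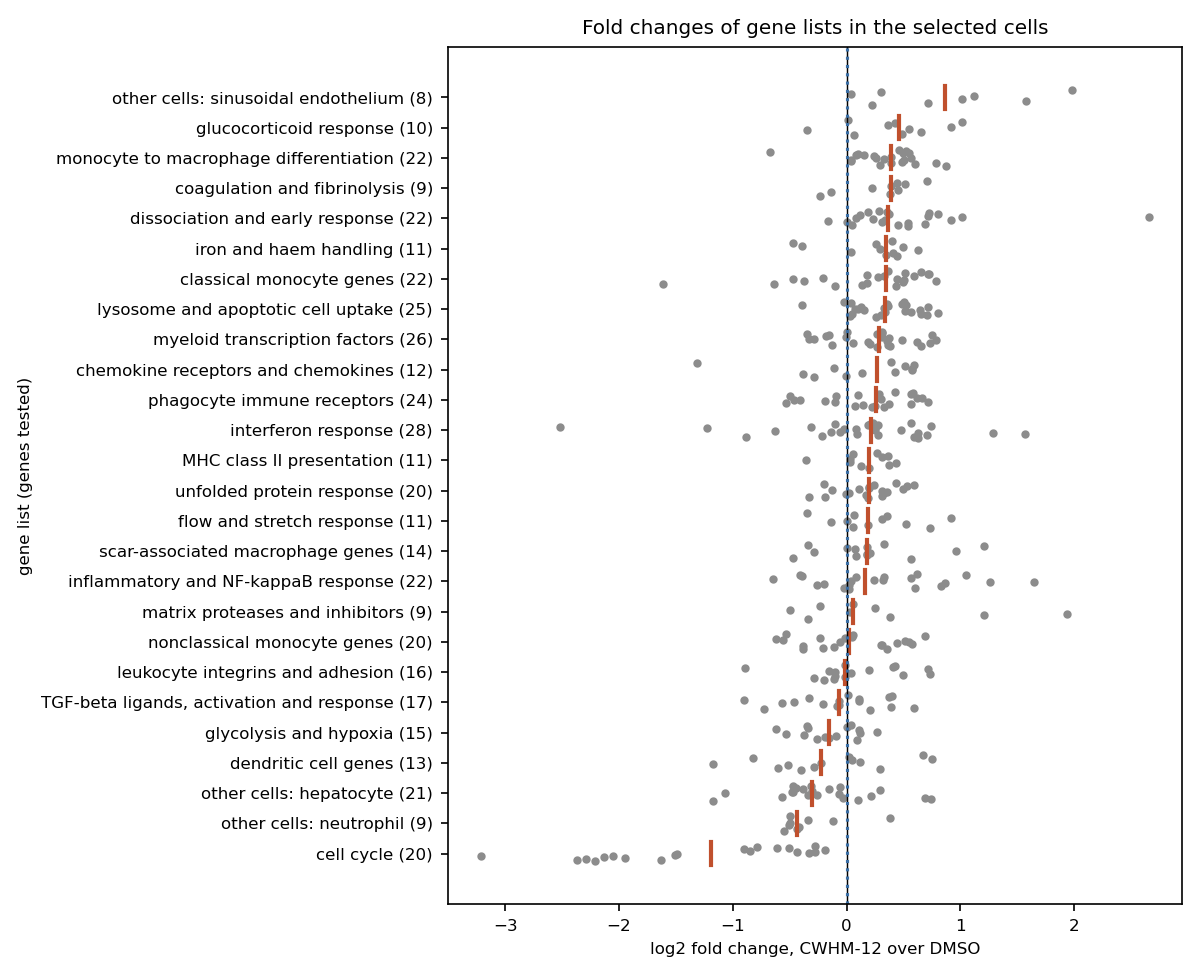
Log2 fold change of each tested gene of the lists in the selected cells, CWHM-12 over DMSO, with the median of each list marked. The cell cycle list has its median at -1.20 with all 20 genes below 0, and most other medians lie between -0.30 and 0.46.

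The integrin subunit that CWHM-12 targets, Itgav, was present at 91.9, 56.4 and 79.2 CPM in the CWHM-12 libraries, against 68.7, 117 and 72.2 CPM in the DMSO libraries (log2 fold change -0.04, SE 0.34, edgeR adjusted p = 0.999), and the groups overlapped. Cells with an Itgav UMI numbered 28, 14 and 11 in CWHM-12 and 19, 17 and 18 in DMSO libraries. Its partner Itgb1 stood at 578, 458 and 545 CPM in the CWHM-12 libraries, against 489, 551 and 439.8 CPM in the DMSO libraries. Itgb5 stood at 48.0, 86.4 and 51.2 CPM in the CWHM-12 libraries, against 38.2, 20.9 and 51.9 CPM in the DMSO libraries. Neither was separated between the groups, and the partners Itgb3, Itgb6 and Itgb8 were too low to be tested. Among leukocyte integrins, the β2 chain Itgb2 stood at 1150.5, 748 and 778 CPM in the CWHM-12 libraries, against 914, 1308 and 808 CPM in the DMSO libraries. The α4 chain Itga4, which binds VCAM-1, stood at 699, 455 and 456 CPM in the CWHM-12 libraries, against 825, 982 and 404 CPM in the DMSO libraries. Both overlapped, and over the list, 7 of 16 tested genes had a log2 fold change above 0 and 9 below, and the median was -0.01. For TGF-β ligands, activators and response genes, 8 of 17 tested genes had a log2 fold change above 0 and 9 below, and the median was -0.07. The latent TGF-β anchor Nrros stood at 651, 601 and 633 CPM in the CWHM-12 libraries, against 547, 505 and 447 CPM in the DMSO libraries, higher in every CWHM-12 library.

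Hepatocyte transcripts were also found in the selected cells, and none of them passed the test. Albumin (Alb) stood at 482, 331 and 549.6 CPM in the CWHM-12 libraries, against 952, 1107 and 1049 CPM in the DMSO libraries (log2 fold change -1.17, SE 0.27, edgeR adjusted p = 0.595). The urinary protein Mup20 stood at 238, 109 and 97.8 CPM in the CWHM-12 libraries, against 448, 405 and 262 CPM in the DMSO libraries (log2 fold change -1.07, SE 0.25, edgeR adjusted p = 0.595). All CWHM-12 libraries were lower than all DMSO libraries for both, and 1 cell gave 68.0% of the Alb UMIs of DMSO library 3. In clusters 1 to 3, with the top cell's UMIs left out of every library, Alb stood at 353, 315 and 283 plain CPM in the CWHM-12 libraries, against 872, 758 and 212 plain CPM in the DMSO libraries, with DMSO library 3 the lowest of all. Mup20 belongs to a family of nearly identical genes, among which reads may be divided. Of the hepatocyte list, 5 of 21 tested genes had a log2 fold change above 0 and 16 below, and the median was -0.30, ranging from -0.60 to 0.13 over 19 alternatives. Alb and Mup20 were its 2 genes with an unadjusted p under 0.05, while the log2 fold change was 0.74 for the apolipoprotein Apoa2, 0.69 for Apoc1 and 0.29 for transferrin (Trf). In Kupffer-type cells the plain Alb level was 1501, 312 and 1980.4 CPM in the CWHM-12 libraries, against 2083, 1008 and 697 CPM in the DMSO libraries, and in B cells it was 952, 585 and 1465 CPM in the CWHM-12 libraries, against 1939, 1339 and 486 CPM in the DMSO libraries. The groups overlapped in both. The part of hepatocyte RNA in the other differences was not tested.

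Kupffer-type cells of the same libraries gave a direct comparison of responses. An interaction test with library as a block found no gene past an adjusted p of 0.05 among 9363 (0%), with 526 (5.62%) at an unadjusted p under 0.05, and the Kupffer-type cells alone gave 0 calls and 186 genes (1.91%) unadjusted. The interaction count depended on single libraries: it was 10 without CWHM-12 library 2 or without DMSO library 2, 9 without CWHM-12 library 3, and 1 without CWHM-12 library 1 or DMSO library 1. On the positive side, the genes of smallest p included Ccn2 (interaction log2 2.86, SE 0.49, edgeR adjusted p = 0.114), Ccl3 (2.00), Timp3 (2.60) and Hspa1b (2.75). Ccn2 stood at 2547 CPM in the 6 cells of cluster 8, against 16.4 CPM in the other selected cells, and Timp3 at 2702, against 20.2 CPM. For Ccl3, 1 cell gave 66.5% of the UMIs of CWHM-12 library 1. The interaction without these cells was not tested. For Hspa1b the log2 fold change was 2.65 in the selected cells, against 0.42 in Kupffer-type cells. On the negative side, the genes of smallest p were the chemokine Ccl24 (-5.62), the granule protease Elane (-6.80) and Ly6i (-5.14), each with 0 UMIs in the selected cells of at least 1 library. They were followed by Mki67 and Kif23, where the interaction was -1.79 for Mki67 and -1.68 for Kif23, with Mki67 at -2.21 in the selected cells, against -0.43 in Kupffer-type cells. Elane stood at 1518 CPM in cluster 5, against 4.22 CPM in the other selected cells, and Mki67 at 631, against 41.1 CPM. The interaction without cluster 5 was not tested. The alternatively activated macrophage product Retnla had an interaction of 5.27, resting on 2795 CPM in the selected cells of CWHM-12 library 3.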

How the data were processed

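Cells from perfused livers were captured on the BD Rhapsody system and made into whole-transcriptome libraries, per the labels' protocols. The deposited matrices hold UMI counts per gene and barcode, whole numbers that the authors had not normalized; GRCm39 is the build named in the submitters' processing notes, with aligner, counting and prior filters not given in the sources used here. Cells with at least 300 genes, 500 UMIs and at most 30% mitochondrial UMIs were kept, and the rule in the opening selected cells. Putative doublets were kept (2 selected cells had a Scrublet score above 0.25) and left out in an alternative.

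Counts were summed over selected cells per library. Genes passing filterByExpr were tested with edgeR 4.0.16 (TMM, quasi-likelihood, batch and treatment, Benjamini-Hochberg at 0.05); DESeq2 1.42.0 and limma 3.58.1 voom were alternatives, and the scripts were tested on simulated counts. Shares were compared by exact two-sided permutation tests over libraries. The C1q share is the mean over all ways to draw 1000 UMIs from each cell, leaving out shallower cells. Clusters came from scanpy 1.11.5 (1500 variable genes, 20 components, 15 neighbours, Leiden resolution 0.8) and serve as description.

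Named genes were the rule genes, the 10 of smallest p in each direction with at least 20 CPM on average, integrins, list members of highest CPM or unadjusted p under 0.05, the leading profile, split and interaction genes, and others where a count needed them; a few of these are not reported here. The selected cells, lists and tests were chosen with earlier results of these data known. Levels by cluster are plain CPM; levels by library are on TMM-scaled sizes unless stated. UMIs per library limit precision: 3 UMIs correspond to 6.26 to 14.0 CPM over all selected cells. In clusters 1 to 3, CWHM-12 library 3 held only 59971 UMIs, and 1 UMI there corresponds to 16.7 plain CPM.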

Additional observations from a re-analysis of the deposited data

How the results depend on the processing

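The count of 0 genes past the threshold held under DESeq2, limma voom, DESeq2 size factors, no batch term, each library left out, the stricter cell filter, doublets left out, at least 3 markers, Ace or Treml4 cells left out, the rule on thinned cells and dendritic-rule cells left out. Without the filter on low counts edgeR called 60 genes (24 higher, 36 lower), of which 33 were also tested with it, and in clusters 1 to 3, added after seeing the data, 1 (Gbp2, log2 fold change -2.58). The cause was not tested. The interaction count was 0, and became 1 without the batch term, 46 with the replicate block (40 higher, 6 lower), 47 without the filter, and 0 to 10 with each library left out: 1 without CWHM-12 library 1, 10 without CWHM-12 library 2, 9 without CWHM-12 library 3, 1 without DMSO library 1 and 10 without DMSO library 2. Same-numbered libraries had correlations of deviations of 0.192, -0.0586 and 0.236. The libraries numbered 2 came from different batches, so these values do not settle whether the numbers pair the libraries. With the replicate block the treatment test called 0 genes (271 unadjusted).

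Of 504 values of 29 named genes, 479 kept direction and side, 18 passed only in an alternative, and 7 turned round. Dnase1l3 became -0.13 with Ace or Treml4 cells left out. Itgav, at -0.04 in the main test and -0.36 with the rule on thinned cells, became 0.00036 under limma voom, 0.12 with at least 3 markers, 0.071 without dendritic-rule cells, and -0.21 to 0.14 with each library left out (0.08 without CWHM-12 library 2, 0.14 without DMSO library 2, 0.04 without DMSO library 3). The share difference ranged from -0.558 to -0.109 percentage points and the C1q difference from 0.467 to 10.7. With 44 to 95 cells per library, a level of 14.0 CPM rests on 3 UMIs in the shallowest library.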
